A study of Mus musculus with 18 samples.

Results

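Ezr, Scaf8, Tmem181a, Zdhhc14 and Unc93a are 5 protein-coding mouse genes of proximal chromosome 17, and their transcripts were measured in germ cells of males with an extra freely segregating marker chromosome. They were picked as genes of that region, with earlier results of these data known, and a probe was taken by a rule that uses no measured value: the padded gene number in its target identifier was that of one of these genes. This found 1 probe for each gene, so 5 of the 8679 genes that could be named on the array are described, and all 5 probes passed the filter on dim probes (detection p under 0.05 on at least 3 of 18 arrays). Ts65Dn mice carry a marker chromosome made of distal chromosome 16 joined to the centromeric end of chromosome 17, so genes of its chromosome 17 part are present in 3 copies. Ts1Cje mice carry an extra copy of a shorter stretch of distal chromosome 16 attached to chromosome 12, and have the usual 2 copies of proximal chromosome 17. Both are used as mouse models of Down syndrome, and the chromosome 17 part of the Ts65Dn marker has no counterpart on human chromosome 21.

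Ezrin, the product of Ezr, ties membrane proteins to the cortical actin cytoskeleton as a member of the ezrin, radixin and moesin family, and in epithelia it is a protein of microvilli. Scaf8 encodes a nuclear protein that binds the carboxy-terminal domain of RNA polymerase II, and in human cells it takes part in the choice of polyadenylation sites. Zdhhc14 encodes an enzyme of the DHHC family, which attaches palmitate to cysteines of other proteins. Tmem181a encodes a multi-pass membrane protein, whose human counterpart is needed for the action of a bacterial toxin. Unc93a encodes a membrane protein of the UNC93 family, related by sequence to solute transporters.

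The RNA came from enriched male germ cells taken at 16-17 or 19-20 days post partum (dpp), an interval in which the leading germ cells pass from meiotic prophase towards the first round spermatids. Each age had 3 arrays of WT (diploid littermates, of which line the labels do not say), 3 of Ts1Cje and 3 of Ts65Dn, or 18 arrays in 6 groups, and the design text calls the 3 samples of a group biological replicates. The strain background and the way the cells were enriched are not given in the labels. Signal was read from Illumina bead arrays, on which each probe is the mean of several beads. Between 17102 and 19784 probes were detected per array, the array medians lay between 179.4 and 225.2 intensity units, and arrays of a group correlated with r between 0.92 and 0.99 across probes. The files name no slide or scan date. Their headers number the arrays in series, and each of the 3 runs of 6 consecutive numbers held 1 array of every group, so the groups are balanced over the runs. The runs match the replicate numbers except for 2 arrays, and whether a run was a slide is not stated.

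By the RefSeq order of coding genes (GRCm38.p6), 4 of the 5 genes lie on the centromeric side of Pde10a, near which the marker's chromosome 17 part is known to end. Scaf8 is the first coding gene of the chromosome, Zdhhc14 has 9 coding genes before it, Tmem181a has 15 and Ezr has 23. Unc93a has 70 coding genes before it and is separated from Pde10a by 24 more on its far side, so by this order it is not on the marker, although it was grouped with the extra genes. A near-copy of it, Unc93a2, lies on the centromeric side with 31 coding genes before it. Pseudogene copies of Tmem181a also lie there. The probe sequences were not used here, so whether the Unc93a probe also reads Unc93a2, or the Tmem181a probe its copies, was not tested.

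The start-site windows of the genes are shown because Tmem181a differs from Ezr and Scaf8 in the results that follow. Those of Unc93a and its near-copy are shown because they resemble each other. Each window runs from 250 bases before to 50 after the annotated start, 5′ to 3′ on the gene's strand, and comes from RefSeq (GRCm38.p6), which gave a window for 4 of the 5 genes. The first windows are chr17:6782731-6783030 (minus strand) for Ezr, chr17:3114722-3115021 (plus strand) for Scaf8, and chr17:6256610-6256909 (plus strand) for the first of the listed starts of Tmem181a. In these, capitals mark the GC box, GGGCGG or CCGCCC on the printed strand.
Ezr: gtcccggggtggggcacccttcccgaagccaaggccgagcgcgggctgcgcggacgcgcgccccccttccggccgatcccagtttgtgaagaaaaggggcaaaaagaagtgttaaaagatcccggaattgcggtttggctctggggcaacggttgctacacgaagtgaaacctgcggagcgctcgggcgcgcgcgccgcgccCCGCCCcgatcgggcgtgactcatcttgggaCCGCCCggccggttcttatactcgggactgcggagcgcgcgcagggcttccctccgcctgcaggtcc
Scaf8: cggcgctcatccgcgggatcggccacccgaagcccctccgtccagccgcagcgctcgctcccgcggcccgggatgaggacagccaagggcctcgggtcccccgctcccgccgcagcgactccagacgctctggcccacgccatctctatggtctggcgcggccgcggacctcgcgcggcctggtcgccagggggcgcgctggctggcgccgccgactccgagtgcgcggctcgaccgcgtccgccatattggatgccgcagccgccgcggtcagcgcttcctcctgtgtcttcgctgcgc
Tmem181a: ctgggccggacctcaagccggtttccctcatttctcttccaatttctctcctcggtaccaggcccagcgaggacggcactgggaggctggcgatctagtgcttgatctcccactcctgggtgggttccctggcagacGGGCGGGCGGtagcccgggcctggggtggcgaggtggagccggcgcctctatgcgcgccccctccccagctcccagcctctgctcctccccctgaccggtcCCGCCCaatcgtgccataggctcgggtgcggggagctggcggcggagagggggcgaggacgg
The Ezr window held 2 GC boxes, that of Tmem181a 3 (of which a pair overlap) and that of Scaf8 none, while 35.7% of 32851 mouse windows of the same 300 bases held at least 1 on either strand. CCAAT or its complement ATTGG occurred in 37.4% of all windows, 2 times in that of Tmem181a, 1 time in that of Scaf8 and not in that of Ezr. TATAAA on either strand, found in 13.6% of all windows, occurred in none of these. The GC content was 68.0% for Ezr, 75.7% for Scaf8 and 70.0% for Tmem181a, against a median of 52.7% over all windows. These matches describe the letters of the windows only.

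The windows of Unc93a, at chr17:13131742-13132041 (minus strand), and Unc93a2, at chr17:7385256-7385555 (minus strand), are set side by side with capitals on their longest identical run.
Unc93a: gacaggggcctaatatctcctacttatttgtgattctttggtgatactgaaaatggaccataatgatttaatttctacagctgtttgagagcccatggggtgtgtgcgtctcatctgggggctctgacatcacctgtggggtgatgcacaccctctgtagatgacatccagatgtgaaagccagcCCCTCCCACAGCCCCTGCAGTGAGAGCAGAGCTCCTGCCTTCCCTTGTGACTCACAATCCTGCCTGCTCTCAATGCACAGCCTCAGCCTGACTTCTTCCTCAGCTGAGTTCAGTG
Unc93a2: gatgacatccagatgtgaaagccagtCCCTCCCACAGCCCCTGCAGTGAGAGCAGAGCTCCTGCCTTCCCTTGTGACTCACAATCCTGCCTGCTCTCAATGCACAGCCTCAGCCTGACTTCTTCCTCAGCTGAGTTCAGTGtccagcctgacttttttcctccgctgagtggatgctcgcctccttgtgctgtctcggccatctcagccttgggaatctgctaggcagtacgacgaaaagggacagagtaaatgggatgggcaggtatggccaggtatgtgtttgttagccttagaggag
They share 140 of the 141 bases over which they overlap, or 99.3%, and the longest identical run is 115 bases. Neither window held a GC box.

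Across both ages, 3 of the 5 genes were higher in Ts65Dn than in the WT and Ts1Cje germ cells together: Ezr, Scaf8 and Zdhhc14, with ratios between 1.74 and 1.78. Tmem181a, which lies between Zdhhc14 and Ezr on the chromosome, and Unc93a did not pass the test. The comparison was the mean of the 2 Ts65Dn groups minus the mean of the 4 groups with 2 copies (n = 6 and 12 arrays), on the log2 scale of normalised intensity. The test was limma's moderated test with Benjamini-Hochberg adjustment over all 21329 tested probes and a threshold of 0.05, as in every comparison that follows. Of all probes tested, 4.04% were called in either direction, 2.26% as higher and 1.78% as lower. The median difference was 0.05 over all tested probes.

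Ezr at 16-17 dpp read 12.09, 12.21 and 11.82 in Ts65Dn, against 11.00, 11.53 and 11.18 in WT and 10.92, 11.52 and 10.49 in Ts1Cje (log2 normalised intensity, as for all levels). The older arrays read 11.24, 11.59 and 11.50 in Ts65Dn, 10.83, 11.04 and 10.75 in WT, and 10.58, 10.78 and 10.66 in Ts1Cje. At each age every Ts65Dn array lay above every array of the other groups. The difference over both ages was 0.80 ± 0.14 (SE), a ratio of 1.74 with a 95% interval from 1.42 to 2.13, with an adjusted p of 0.0192. Before normalisation the Ezr probe read between 1356.8 and 5899.1 intensity units (median 2361.3), averaged over 22 to 43 beads per array.

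Scaf8 at 16-17 dpp read 9.58, 9.31 and 8.77 in Ts65Dn, 8.52, 7.87 and 8.64 in WT, and 8.47, 8.77 and 8.66 in Ts1Cje. Later, at 19-20 dpp, the values were 8.72, 8.66 and 8.81 in Ts65Dn, 8.42, 8.03 and 7.69 in WT, and 7.39, 7.65 and 7.57 in Ts1Cje. Ts65Dn lay above all other arrays at 19-20 dpp, whereas at 16-17 dpp its lowest array met the highest Ts1Cje array. The difference over both ages was 0.83 ± 0.15, a ratio of 1.78 (95% interval 1.44 to 2.21), with an adjusted p of 0.0198. Its raw signal ran from 311.1 to 1147.6 units (median 510.25).

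Zdhhc14 at 16-17 dpp read 11.43, 11.21 and 11.25 in Ts65Dn, 10.14, 10.99 and 10.96 in WT, and 10.73, 11.11 and 10.50 in Ts1Cje. At 19-20 dpp it read 10.62, 11.29 and 11.22 in Ts65Dn, 9.94, 10.39 and 9.74 in WT, and 9.61, 9.91 and 10.10 in Ts1Cje. The Ts65Dn arrays were the highest at both ages, by a margin at the younger age that is smaller than the spread within each control group. The difference over both ages was 0.83 ± 0.16, a ratio of 1.77 (95% interval 1.40 to 2.24), with an adjusted p of 0.0245. Its raw signal ran from 855.8 to 3780.3 units.

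Tmem181a at 16-17 dpp read 12.56, 12.25 and 12.41 in Ts65Dn, 12.88, 12.43 and 12.57 in WT, and 12.59, 12.01 and 12.30 in Ts1Cje. In the older animals it read 12.53, 12.47 and 12.43 in Ts65Dn, 12.61, 12.46 and 12.84 in WT, and 12.41, 12.86 and 13.07 in Ts1Cje. The Ts65Dn arrays lay inside the range of the other groups at both ages. The difference over both ages was -0.15 ± 0.12, a ratio of 0.90 (95% interval 0.76 to 1.08), with an adjusted p of 0.383. A ratio of 1.5 lies above that interval. Its raw signal, from 4441.6 to 8032.7 units, stood between percentiles 92.7 and 96.4 of each array.

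Unc93a at 16-17 dpp read 7.16, 7.25 and 7.32 in Ts65Dn, 6.68, 6.60 and 6.88 in WT, and 6.24, 6.95 and 6.99 in Ts1Cje. Older arrays gave 7.12, 6.47 and 6.70 in Ts65Dn, 7.10, 6.94 and 7.09 in WT, and 7.20, 6.85 and 6.67 in Ts1Cje. The Ts65Dn arrays were the highest at the younger age and overlapped both other groups at the older one. The difference over both ages was 0.15 ± 0.13, a ratio of 1.11 (95% interval 0.92 to 1.35), with an adjusted p of 0.397. It joins opposite differences from WT and Ts1Cje together, 0.52 at 16-17 dpp and -0.21 at 19-20 dpp. A ratio of 1.5 lies above this joint interval, but inside the interval against WT at 16-17 dpp (1.05 to 1.97). The probe was dim: its raw signal of 213.5 to 350.5 units lay close to the array medians, and it was not detected on replicate 1 of Ts1Cje at 16-17 dpp.

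**Figure D1:**
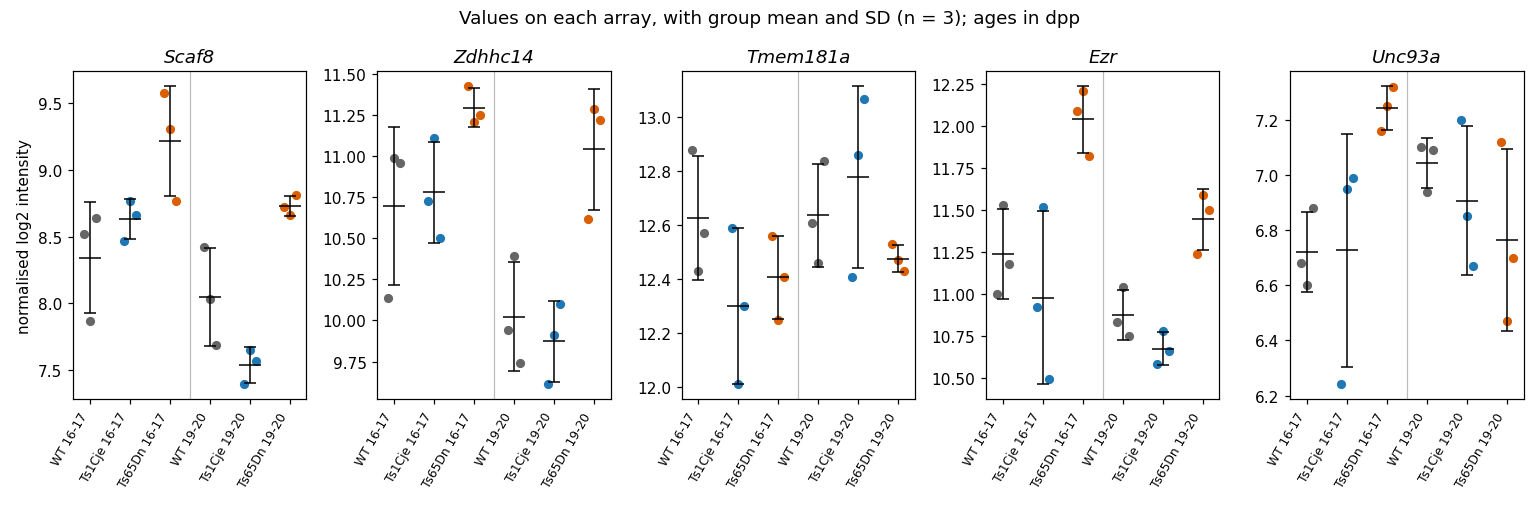
Log2 normalised intensity (y axis) of the 5 genes on each of the 18 arrays, by genotype and age (x axis); points are arrays, long bars group means and error bars the SD (n = 3). Ezr, Scaf8 and Zdhhc14 sit higher in Ts65Dn at both ages, whereas Tmem181a does not and Unc93a does so at 16-17 dpp alone.

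Over both ages the 95% intervals of Ezr, Scaf8 and Zdhhc14 each contained a log2 difference of 0.58, the ratio of 3 copies to 2. Those of Tmem181a and Unc93a did not. For Unc93a, which is not on the marker by the RefSeq order, the interval against WT at 16-17 dpp (0.07 to 0.98) contained it. In 3 of the single comparisons with Ts1Cje the interval lay wholly above 0.58: for Scaf8 (0.68 to 1.69) and Zdhhc14 (0.62 to 1.73) at 19-20 dpp, and for Ezr at 16-17 dpp (0.59 to 1.54). In bulk RNA, fewer cells of a type and less RNA per cell cannot be told apart, so a difference here is one between mixtures of cells. Within the 3 runs of array numbers the difference over both ages was 0.78, 0.73 and 0.89 for Ezr, 1.04, 0.81 and 0.65 for Scaf8, and 0.80, 0.76 and 0.91 for Zdhhc14. It was thus above 0 in every run for these 3 genes, and below 0 in every run for Tmem181a (-0.04, -0.12 and -0.28), while Unc93a had 0.37, -0.02 and 0.10. With the runs as a block, in a fit added after the data had been seen, the same 3 genes were called, with adjusted p of 0.0143, 0.0183 and 0.0188. That fit called 2546 of all probes, against 862 without the block, so more probes of any kind passed in it.

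Single arrays decided the calls. Leaving out Ts65Dn replicate 1 or 2 at 16-17 dpp, or replicate 2 or 3 at 19-20 dpp, left 0 of the 5 called. In these fits 43, 18, 5 and 17 of all probes were called, in that order, against 862 with all 18 arrays. Calls were thus lost among all probes, not only for these genes. Without Ts65Dn replicate 3 at 16-17 dpp Zdhhc14 had an adjusted p of 0.0562. The size of the difference moved little, from 0.74 to 0.87 for Ezr, from 0.74 to 0.95 for Scaf8 and from 0.76 to 0.93 for Zdhhc14 over the 18 arrays left out in turn.

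**Figure D2:**
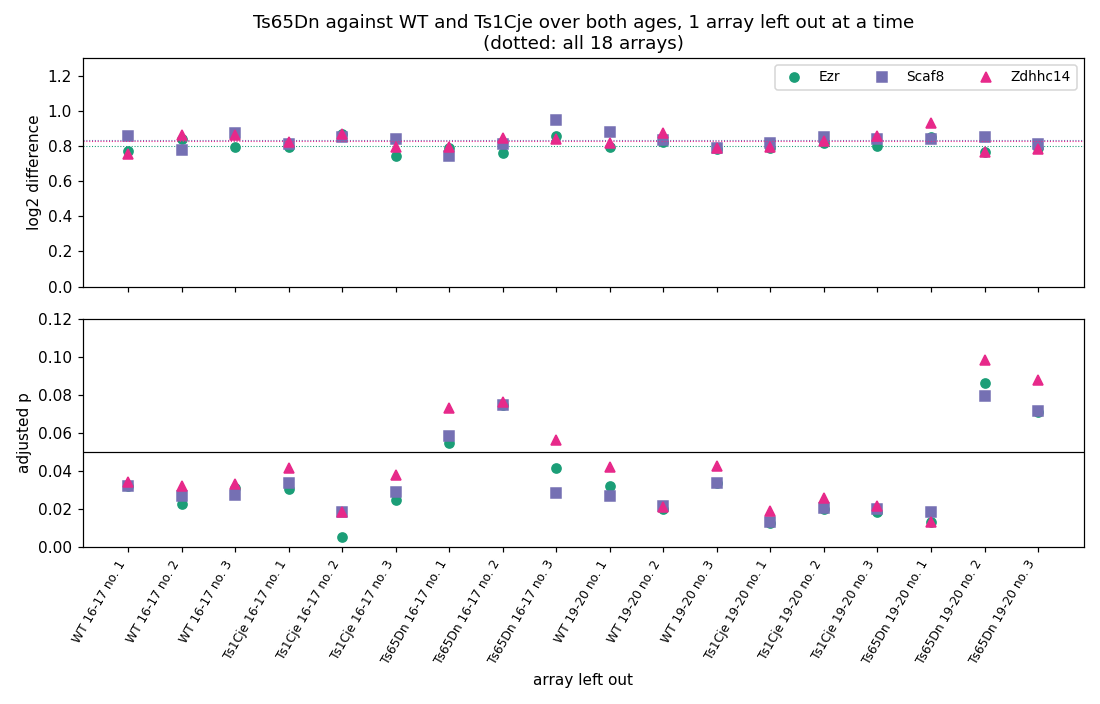
Log2 difference (first panel) and adjusted p (second panel, with a line at 0.05) of Ezr, Scaf8 and Zdhhc14, Ts65Dn against WT and Ts1Cje over both ages, with each of the 18 arrays left out in turn (x axis); dotted lines are the values of all arrays. The differences stay above 0.7, whereas the adjusted p crosses 0.05 when single Ts65Dn arrays are left out.

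The choice of controls and ages also moved the calls, in comparisons that were added after the data had been seen. Against WT alone the differences were 0.69 for Ezr, 0.78 for Scaf8 and 0.81 for Zdhhc14, with adjusted p of 0.0721, 0.0627 and 0.0721, and 0.0985% of all probes were called. Against Ts1Cje alone they were 0.92, 0.89 and 0.84, with adjusted p of 0.0302, 0.0419 and 0.0615, and 0.239% of probes were called. The sizes were thus similar with either control, while few probes of any kind passed in these smaller comparisons. With the 16-17 dpp arrays alone 0 of the 5 were called (0.0469% of all probes), and with the 19-20 dpp arrays alone Ezr, Scaf8 and Zdhhc14 were (19.9% of all probes).

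At 16-17 dpp, Ts65Dn minus WT (n = 3 and 3) was 0.80 ± 0.22 for Ezr, 0.88 ± 0.24 for Scaf8, 0.60 ± 0.26 for Zdhhc14, 0.52 ± 0.21 for Unc93a and -0.22 ± 0.20 for Tmem181a. None of the 5 was called by limma, with adjusted p from 0.323 to 0.838, where 0.0188% of all probes were called and 1656 had an unadjusted p under 0.05. Every Ts65Dn array lay above every WT array for 4 of the 5 genes, all except Tmem181a, beside 10.6% of all probes. Against WT and Ts1Cje together this held for Ezr, Zdhhc14 and Unc93a, beside 3.3% of all probes.

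Ts65Dn minus Ts1Cje at 16-17 dpp was 1.06 ± 0.22 for Ezr, 0.59 for Scaf8, 0.51 for Zdhhc14, 0.52 for Unc93a and 0.10 for Tmem181a, and 0 of the 5 were called. In that comparison 0% of all probes were called by limma, while 1083 had an unadjusted p under 0.05. Ezr had an adjusted p of 0.31 and an unadjusted p of 0.000245. The Ts65Dn arrays lay above all Ts1Cje arrays for Ezr, Zdhhc14 and Unc93a, beside 6.22% of all probes.

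At 19-20 dpp, Zdhhc14 was higher in Ts65Dn than in WT, by 1.02 ± 0.26 (adjusted p of 0.0421), and was the 1 gene of the 5 called, where 4.82% of all probes were called, 1.81% as higher. Ezr differed by 0.57 (adjusted p of 0.114) and Scaf8 by 0.68 (adjusted p of 0.0858), and neither passed. Tmem181a stood at -0.16 and Unc93a at -0.28. The Zdhhc14 call was lost without WT replicate 1 or 3 or Ts65Dn replicate 2 or 3 of that age, with adjusted p from 0.104 to 0.207. In these fits 1, 106, 0 and 0 of all probes were called, in that order, against 1028 with all arrays. The Zdhhc14 call was also lost with median scaling (0.0567), with no filter on dim probes (0.0673) and in a fit of only these groups (0.0526). Array weights, which ran from 0.12 to 7.43, called Ezr and Scaf8 as well (0.00793 and 0.00298). How many of all probes passed with them is not given here. With the runs of array numbers as a block Zdhhc14 was again the 1 gene called (0.03), where 2749 of all probes were called. Every Ts65Dn array exceeded every WT array for Ezr, Scaf8 and Zdhhc14, but so did 25.3% of all probes.

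Against Ts1Cje at 19-20 dpp, Ezr, Scaf8 and Zdhhc14 were all called as higher in Ts65Dn, where 11.8% of all probes were called, 7.33% as higher. Ezr rose by 0.77 (adjusted p of 0.0404), Scaf8 by 1.19 (adjusted p of 0.0122) and Zdhhc14 by 1.17 (adjusted p of 0.0177). Tmem181a differed by -0.30 and Unc93a by -0.14, neither called. In 1 of 10 other settings Tmem181a was called as lower. Over all 10 its difference ran from -0.48 to -0.16 and its adjusted p from 0.00974 to 0.61. Ezr lost its call in 2 of 10 other settings (adjusted p up to 0.134). Without Ts65Dn replicate 2 or 3 of that age 0 of the 5 were called, and without Ts1Cje replicate 1 only Scaf8 was. In these fits 95, 194 and 380 of all probes were called, in that order, against 2509 with all arrays. Without Ts1Cje replicate 3 Ezr had an adjusted p of 0.0545. A fit of these groups alone called 0 of the 5, with 3 probes called in all. The same 3 genes lay above all Ts1Cje arrays, beside 20% of all probes, and above both other groups, beside 13.9%. The Ts65Dn arrays are shared by these comparisons, so their results are not independent of each other.

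**Figure D3:**
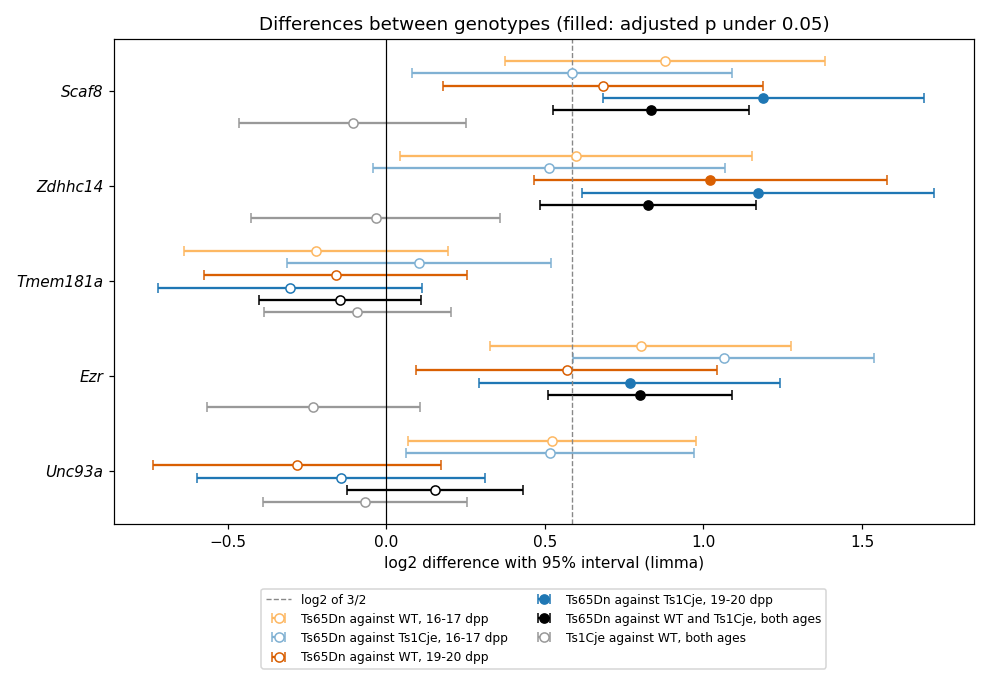
Log2 difference with its 95% interval (x axis) of the 5 genes (y axis) in 6 comparisons, from limma's fit of all 18 arrays; filled points have an adjusted p under 0.05 and the dashed line at 0.58 is the log2 ratio of 3 copies to 2. The Ts1Cje against WT intervals include 0 for all 5 genes.

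Between Ts1Cje and WT, which both have 2 copies of these genes, the differences over both ages were -0.23 for Ezr, -0.11 for Scaf8, -0.09 for Tmem181a, -0.03 for Zdhhc14 and -0.07 for Unc93a. None was called (adjusted p of 1 for each), nor was any of the tested probes (0%) by limma, of which 418 had an unadjusted p under 0.05.

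With age, Zdhhc14 fell in WT by 0.67 on the log2 scale (SE 0.26, adjusted p of 0.046) and was the 1 gene of the 5 called, where 46.7% of all probes were called, 28.2% as lower. In Ts1Cje, Zdhhc14 fell by 0.91 (adjusted p of 0.0115) and Scaf8 fell by 1.09 (adjusted p of 0.00254), where 45.4% of all probes were called, 27.4% as lower. With so many of all probes called, these counts are no result about the 5 genes. The WT call was lost without replicate 2 or 3 at 16-17 dpp or replicate 1 or 3 at 19-20 dpp (adjusted p from 0.12 to 0.165). The Zdhhc14 call in Ts1Cje was lost without replicate 2 at 16-17 dpp (adjusted p of 0.0589) or replicate 1 at 19-20 dpp (0.0537), and Tmem181a (0.48, adjusted p of 0.0564) passed without replicate 1 of either age (0.0248 and 0.0185) and in 5 of 10 other settings (0.00441 to 0.226 over all 10). In Ts65Dn 0 of the 5 were called, where 8.71% of all probes were. There Ezr differed between the ages by -0.60, Scaf8 by -0.49, Unc93a by -0.48, Zdhhc14 by -0.25 and Tmem181a by 0.07. With the runs of array numbers as a block Ezr passed (adjusted p of 0.0435), where 3864 of all probes were called, against 1858 without the block.

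The test of whether the age change differed between Ts65Dn and WT called none of the 5 genes and 0% of all probes by limma, with 3083 probes at an unadjusted p under 0.05. Zdhhc14 had an interaction of 0.42 (adjusted p of 0.618) and Unc93a one of -0.80 ± 0.30 (adjusted p of 0.256). The levels of Ts65Dn at 19-20 dpp can also be set beside WT at 16-17 dpp, without a test. The mean difference was 0.39 for Scaf8, 0.35 for Zdhhc14, 0.21 for Ezr, 0.04 for Unc93a and -0.15 for Tmem181a. How many of all probes differed as much was not counted, so these values are no result about the 5 genes.

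Markers of germ cell stages and of other testis cells moved alongside. Of the 15 listed round spermatid genes 7 were tested, and their mean level was 7.54 to 8.64 in WT, 7.01 to 8.39 in Ts1Cje and 7.57 to 7.94 in Ts65Dn arrays at 16-17 dpp. At 19-20 dpp it was 10.12 to 11.31 in WT, 10.07 to 12.34 in Ts1Cje and 8.69 to 9.51 in Ts65Dn, so the older Ts65Dn arrays were the lowest. The spermatogonial list (4 of 10 genes tested) was at 8.23 to 8.52 in WT, 7.44 to 8.19 in Ts1Cje and 8.89 to 9.22 in Ts65Dn at that age, the highest there. At 16-17 dpp the spermatogonial list was at 8.74 to 9.30 in WT, 8.99 to 9.70 in Ts1Cje and 9.31 to 9.44 in Ts65Dn, so that the Ts65Dn arrays lay within the range of Ts1Cje.

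The Sertoli list (3 of 14 genes tested) read 12.31 to 12.62 in WT, 11.95 to 12.69 in Ts1Cje and 12.69 to 12.76 in Ts65Dn at 16-17 dpp. At 19-20 dpp it read 11.23 to 11.93, 11.18 to 12.13 and 11.99 to 12.34, so the preparations of every group held Sertoli markers. Over both ages the median difference between Ts65Dn and the other groups was 0.55 for spermatogonial, -0.93 for round spermatid and 0.54 for Sertoli genes. It was 0.46 for the meiotic prophase list (2 of 12 tested, Smc3 and Smc1a) and -0.95 for pachytene to diplotene (2 of 12, Aurkc and Zpbp). Smc3 and Smc1a, core subunits of cohesin, fell with age in WT (-1.07 and -1.20). The other genes of the meiotic prophase list, such as Sycp1, Sycp3 and Rec8, had no named probe, so its value rests on these cohesin genes. Leydig genes (6 of 10 tested) had a median of 0.02 over both ages, which joins opposite differences: 1.18 against WT and 0.80 against Ts1Cje at 16-17 dpp, with all 6 above 0, and -0.55 and -1.01 at 19-20 dpp, with 1 of 6 above 0. None of these Leydig differences was called. The median over both ages was 0.28 for peritubular (4 of 9), -0.56 for macrophage (4 of 9) and 0.43 for endothelial genes (3 of 7). Of all these marker genes, over both ages Smc3 rose (0.53, adjusted p of 0.0408), Aurkc had -0.90 (adjusted p of 0.0363) and no other was called.

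The single ages differed more. Against Ts1Cje at 19-20 dpp, where Ezr, Scaf8 and Zdhhc14 were all called, 4 of 4 spermatogonial genes were called higher (median 1.21). So were 1 of 2 genes of the meiotic prophase list (Smc3, list median 0.76) and 1 of 4 peritubular genes (median 1.24), beside 7.33% of all probes called higher. In the same comparison 2 of 7 round spermatid genes (median -1.92) and 1 of 2 pachytene to diplotene genes (-1.24) were called lower, beside 4.44% of all probes. Against WT at that age Smc3 and 1 endothelial gene were called higher, beside 1.81% of all probes called higher. In that comparison 1 round spermatid and 1 pachytene to diplotene gene were called lower, beside 3.01% of all probes called lower. At 16-17 dpp none of the marker genes was called by limma against either control. Izumo1, Ctsl, Cnn1, Csf1r and Vwf had a named probe that did not pass the filter. The part of cell makeup in the differences of Ezr, Scaf8 and Zdhhc14 was not tested.

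The other genes of the same stretch moved less evenly. The stretch from the start of chromosome 17 to Pde10a holds 46 coding genes. Of its RefSeq genes of any type, 20 had a named probe and 10 of these were tested. Over both ages 5 of the 10 were called as higher in Ts65Dn and 0 as lower, with a median difference of 0.35, beside 2.26% of all probes called higher. Without Ezr, Scaf8, Tmem181a and Zdhhc14, 2 of 6 were called and the median was 0.20. In the next stretch, from beyond Pde10a to Tbp, 13 of 22 named genes were tested, 1 was called (1600012H06Rik, 0.54 ± 0.14, adjusted p of 0.0439) and the median was 0.03.

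Tmem242, whose human counterpart takes part in the assembly of mitochondrial ATP synthase, read 13.20, 13.42 and 13.25 in the younger Ts65Dn arrays, 12.69, 12.75 and 12.66 in WT, and 12.76, 12.46 and 12.89 in Ts1Cje. Levels at 19-20 dpp were 12.95, 13.03 and 12.91 in Ts65Dn, 12.57, 12.66 and 12.85 in WT, and 12.44, 12.86 and 12.76 in Ts1Cje. Its Ts65Dn arrays were the highest at each age, and it rose by 0.43 ± 0.09 (adjusted p of 0.0309). Rps6ka2, a kinase of the RSK family that acts below ERK, read 12.12, 11.81 and 11.74 in the younger Ts65Dn arrays, 10.51, 10.49 and 11.10 in WT, and 10.01, 11.29 and 10.71 in Ts1Cje. The older arrays gave 10.27, 10.99 and 10.93 in Ts65Dn, 9.27, 9.97 and 9.97 in WT, and 9.10, 10.28 and 10.74 in Ts1Cje, where it overlapped Ts1Cje. It rose by 1.02 ± 0.24 over both ages (adjusted p of 0.038).

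Both of these calls were lost without any 1 of the same 5 Ts65Dn arrays as for Zdhhc14 or without WT replicate 1 of either age, with adjusted p up to 0.115 for Tmem242 and 0.132 for Rps6ka2. For Rps6ka2 this also held without WT replicate 2 or Ts1Cje replicate 1 or 3 at 16-17 dpp, or WT replicate 3 at 19-20 dpp. Tulp4, the tubby-like gene next to Tmem181a, had 0.27 (adjusted p of 0.055), and passed without Ts1Cje replicate 2 at 16-17 dpp or replicate 1 or 3 at 19-20 dpp (adjusted p from 0.0438 to 0.048) and in 8 of 14 other settings (adjusted p from 0.00123 to 0.481 over all 14). Tagap1 had 0.13, the lactate dehydrogenase-like gene Ldhal6b -0.07 and the t-complex gene Tcp10a -0.32, and none of these passed. In the younger arrays against WT alone the 10 genes of the stretch had a median of 0.50 with 7 above 0 and 0 called, the 13 genes beyond it had a median of 0.02, and all probes had -0.01. In the older arrays these medians were 0.29, -0.28 and 0.11.

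**Figure D4:**
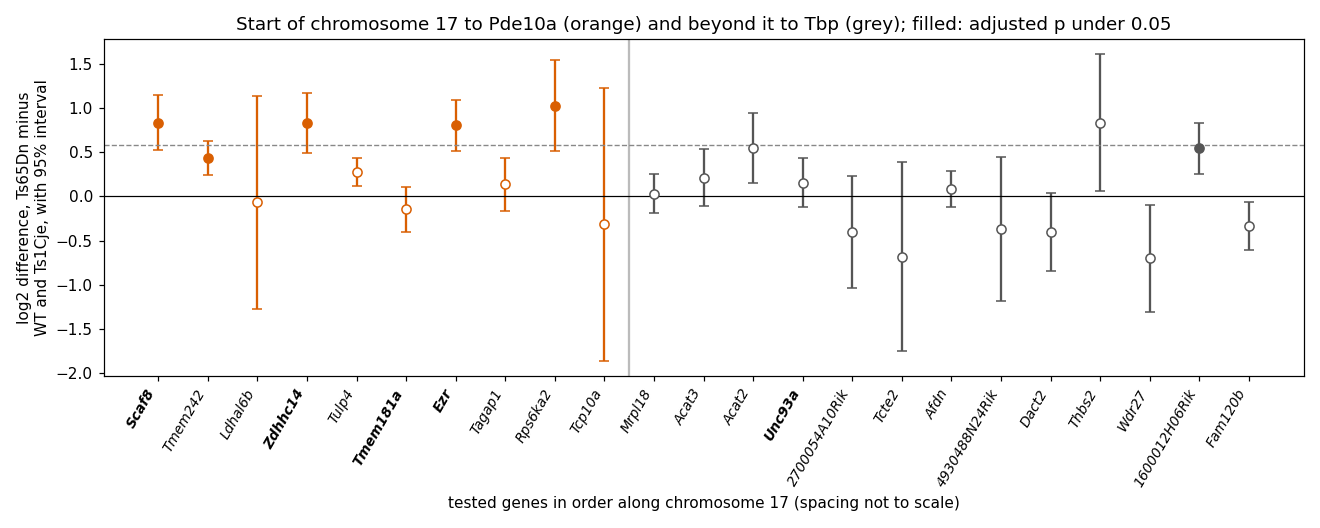
Log2 difference with its 95% interval (y axis), Ts65Dn against WT and Ts1Cje over both ages, for the tested genes of proximal chromosome 17 in their RefSeq order (x axis, not to scale); a vertical line marks Pde10a, the dashed line is 0.58, filled points have an adjusted p under 0.05 and the 5 genes are in bold. On the centromeric side 5 of 10 genes were called as higher, and beyond Pde10a 1 of 13 was.

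Genes that act with the 5 were described by lists. Of 17 listed partners, relatives and regulators of ezrin 8 were tested, with a median of 0.21 over both ages, and 1 was called: Slk, a kinase that phosphorylates ezrin-family proteins, rose by 0.41 ± 0.09 (adjusted p of 0.0338). The ezrin relatives moesin (Msn, 0.35, adjusted p of 0.144) and radixin (Rdx, -0.06) did not pass. Stk10, another kinase of ezrin, had -0.79 ± 0.22 against Ts1Cje at 19-20 dpp (adjusted p of 0.0339), opposite to Ezr there.

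Of 25 listed genes, DHHC palmitoyltransferases and the accessory gene Golga7, 7 were tested, the median was 0.16 and Zdhhc14 alone was called. A list of 9 held proteins that bind the polymerase's carboxy-terminal domain or resemble Scaf8, and Polr2a, the subunit with that domain. Of these 7 were tested, with a median of 0.21, and Scaf8 and Scaf11 (0.60 ± 0.16, adjusted p of 0.0467) were called. Of 4 UNC93-family genes 2 were tested and 0 called, Unc93a and Mfsd11 (-0.42, adjusted p of 0.117). The calls of Slk, Scaf11 and 1600012H06Rik were lost in 10, 12 and 12 of the 18 fits that left out an array. Beside these counts 4.04% of all probes were called, and the median of all named genes was 0.09.

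The genes whose levels followed each gene most closely over the 18 arrays, among 5161 other named genes, are given as a description. All share the arrays, the ages and the mixture of cells. For Ezr they were Pcbp4 (Pearson r of 0.87), Gabpa (0.86) and Dnajc6 (0.86). For Scaf8 they were Tmed10 (0.93), Dcaf13 (0.90) and Ecpas (0.89), and for Zdhhc14 they were Sv2a (0.95), Gabpa (0.95) and Ndrg4 (0.93). Gabpa lies on the chromosome 16 part of the Ts65Dn marker. For Tmem181a the closest were Rab28 (0.76), Pbx4 (0.70) and Senp6 (0.70), and for Unc93a they were Pla2g5 (0.89), 2810021J22Rik (0.79) and Ndufa3 (0.77).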

How the data were processed

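Expression was measured on Illumina MouseWG-6 v1.1 arrays in 18 samples. For 46657 probes the deposited files hold a mean signal intensity with the number of beads behind it, and a detection p-value, per the file headers. They were made with BeadStudio, per the submitters' processing notes; which version of it was used is not given in the sources. The intensities are not normalised between arrays, since array medians differ. The deposited series table holds, per its values, log2 intensities, and was used only as an alternative.

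Control and non-mouse targets (541) were left out. Intensities were background-corrected from the detection p-values (nec, offset 16), quantile-normalised and taken to log2 in limma 3.58.1 under R 4.3.3. Tests covered the 21329 probes whose detection p lay under 0.05 on 3 or more of the 18 arrays. A linear model of the 6 groups was fitted (lmFit, eBayes), with Benjamini-Hochberg adjustment over these probes and a threshold of 0.05. Arrays give no count of molecules, and 3 arrays per group limit the precision. The p-values set each difference against a spread between samples that was pooled over the 6 groups and moderated across the tested probes.

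Gene names came from the padded gene number in the target identifier or, for RIKEN clone targets, from the clone name, each matched to RefSeq. This named 10778 probes for 8679 genes and 28.0% of the tested probes. A gene with several tested probes was represented by the brightest. The genes named are the 5 members, every tested gene from the chromosome start to Pde10a, genes called in a Ts65Dn comparison from there to Tbp and of each related list (at most 4), and for each member the 3 genes of highest r. Msn, Rdx, Mfsd11 and the marker genes named singly fall outside this rule and were chosen after their values were seen. The members and lists were chosen with earlier results of these data known. Runs of consecutive array numbers in the file headers were examined as possible batches. Alternatives were other background corrections, scaling, filters, models, the deposited log2 table and leaving out each array. Sequence windows and motif counts came from RefSeq tables, read with python 3.11.15 and pandas 2.3.3. The files' genome build is not stated and no coordinates were taken from them.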

Additional observations from a re-analysis of the deposited data

Results flagged for a closer look

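Scaf8 in Ts1Cje against WT was singled out because all its arrays lay on opposite sides of the WT mean at the 2 ages. Ts1Cje was higher than WT at 16-17 dpp (0.29) and lower at 19-20 dpp (-0.51), and the test of the difference between the ages gave -0.80 ± 0.34 on the log2 scale (limma, unadjusted p of 0.0308, adjusted p of 1). Both groups have 2 copies of Scaf8. None of the tested probes passed that test.

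Unc93a was singled out because its level moved with age in opposite directions in every array of WT and of Ts65Dn. The change from 16-17 to 19-20 dpp was 0.32 in WT and -0.48 in Ts65Dn, and the interaction was -0.80 ± 0.30 (limma, unadjusted p of 0.0175, adjusted p of 0.256), which did not pass the threshold. Its probe is dim on every array.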

How the results depend on the processing

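Of 1217 recomputed differences over 59 results, 1023 kept direction and side of the threshold, 123 lost the call, 33 gained one and 38 changed sign. The 3 calls over both ages were 3 under every other setting listed in the methods except leaving out arrays, which gave 0 to 3; in comparisons added later they were 0 against WT alone and 0 at 16-17 dpp alone. The labels do not say that replicate numbers pair the samples, and the data leave this unsettled: 33 of 45 same-numbered pairs deviated together with r over 0.1, the others did not (range -0.30 to 0.64), and 14 of 18 arrays followed their own number best. With the replicate block, 2 genes in place of 1 were called against WT at 19-20 dpp and 1 in place of 0 with age in Ts65Dn. With runs of array numbers as a block (24 of 45 pairs over 0.1) the count moved only with age in Ts65Dn, to 1. Array weights ran from 0.12 to 7.43. With them 2 genes were called in Ts65Dn against WT at 16-17 dpp, 3 at 19-20 dpp and 1 against Ts1Cje at 16-17 dpp. They gave 2 with age in WT, 3 with age in Ts65Dn and 1 for the interaction. A fit of only the groups compared gave 0 at 19-20 dpp with either control of Ts65Dn, 0 with age in WT, 1 in Ts1Cje and 1 in Ts65Dn. Median scaling, and no filter on dim probes, each gave 0 against WT at 19-20 dpp and 0 with age in WT. Leaving out arrays gave 0 to 1 against WT and 0 to 3 against Ts1Cje at 19-20 dpp, 0 to 1 with age in WT and 1 to 3 in Ts1Cje.

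These differences changed sign. Under median scaling Tmem181a was 0.00087 against WT at 16-17 dpp, 0.011 over both ages and -0.058 for the interaction, Unc93a was 0.051 against Ts1Cje at 19-20 dpp and Ldhal6b 0.11 over both ages. With array weights Tmem181a was 0.033 in Ts1Cje against WT, and with age in Ts1Cje Ezr was 0.064 and Unc93a -0.091. Over both ages Unc93a was -0.21 at 19-20 dpp alone, Ldhal6b 0.15 against Ts1Cje alone, and at 16-17 dpp alone Tagap1 was -0.083, Tcp10a 0.42 and Slk -0.0053. Leaving out arrays gave Tmem181a -0.043 to 0.25 against Ts1Cje at 16-17 dpp, -0.16 to 0.0026 in Ts1Cje against WT, -0.091 to 0.14 with age in WT, -0.0020 to 0.15 in Ts65Dn and -0.063 to 0.16 for the interaction. It gave Unc93a -0.32 to 0.0069 against Ts1Cje at 19-20 dpp, -0.14 to 0.056 in Ts1Cje against WT and -0.067 to 0.31 with age in Ts1Cje, Zdhhc14 -0.17 to 0.059 in Ts1Cje against WT, Scaf8 -0.42 to 0.041 for the interaction, Ldhal6b -0.46 to 0.18 and Tcp10a -0.78 to 0.0050 over both ages. The causes were not tested. Testing only probes detected on all arrays gave no value for Unc93a. The dim Unc93a probe and the number of arrays limit what can be resolved.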
